A study of Caenorhabditis elegans with 6 samples.

Results

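The *fbxa* genes are the largest named family of F-box genes in *Caenorhabditis elegans*. They were taken here as every row of the deposited expression table whose gene symbol begins with *fbxa*, provided that it reached 1 RPKM (reads per kilobase of transcript, scaled to the mapped reads of the library) in at least 3 of the 6 libraries. Of 222 such rows, 109 met this minimum, 94 were detected below it and 19 were at 0 in every library. The comparison was between strain PMD122, homozygous for the *nhr-49(nr2041)* deletion, and its wild type sister strain PMD121, with 3 biological replicates of each. Both strains came from a cross of N2 with an *nhr-49(nr2041)* carrier, from which homozygous F2 animals were kept, so each genotype was 1 line and any other difference between the lines cannot be told apart from the deletion. All 6 libraries were made from polyA RNA of whole late L4 animals that were grown at 20°C on HT115 bacteria carrying the empty RNAi vector. In whole animals, fewer cells of a type and less RNA per cell cannot be told apart.

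An F-box protein is the substrate receptor of an SCF ubiquitin ligase: its F-box motif binds a SKP1-related adaptor, which in turn binds the cullin CUL-1 and the RING protein RBX-1, while the rest of the protein holds the target to be ubiquitinated. Nematodes have multiplied this family far beyond that of other animals, and most *fbxa* products combine the F-box with an FTH domain (also called DUF38). The targets of most of them are unknown. NHR-49 is a nuclear hormone receptor that activates genes of fatty acid desaturation, lipid oxidation and several stress responses.

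Library totals were inferred from the RPKM values and lay between 24523159 and 30183162 mapped reads. *nhr-49* itself was listed at 26.1, 22.1 and 26.1 RPKM in nhr-49(nr2041) animals, against 39.4, 40.8 and 37.8 RPKM in wild type animals. All 3 mutant libraries lay below all 3 wild type libraries (log2 fold change −0.65 ± 0.11 SE, limma adjusted p = 0.0164). Before the family is described, 2 libraries need to be set apart, nhr-49(nr2041) replicate 1 and wild type replicate 2. The summed level of 7 germline markers was 217, 389 and 543 RPKM in the mutant libraries and 553, 333 and 508 RPKM in the wild type libraries, so both of these libraries were the lowest of their genotype. Hypodermis markers (6 genes) summed to 1103, 833 and 838 RPKM in the mutant, against 725, 871 and 686 RPKM in wild type. Both libraries were here the highest of their genotype. Single genes did not all follow these sums. In the germline list, *syp-2* was highest in mutant replicate 1 (20.4, 14.4 and 16.9 RPKM in the mutant). In the hypodermis list, *rol-6*, *dpy-7* and *elt-3* followed the sum in both genotypes. *bli-1* was lowest in wild type replicate 2 (214.4, 195.1 and 204.2 RPKM in wild type). *elt-1* and *lin-26* were not highest in that library either. Body wall muscle markers (6 genes) summed to 1588, 2754 and 2474 RPKM in the mutant, against 2951, 3021 and 2936 RPKM in wild type. None of the markers of these 3 lists was at 0 in every library, none passed the test between genotypes, and their part in the results on the *fbxa* genes was not tested.

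The *fbxa* genes were transcribed at low levels. The median of their means over the 6 libraries was 2.99 RPKM, against 11.5 RPKM for all 13965 genes that passed the same minimum. A mean under 2 RPKM was found for 35 members, 2 to 5 RPKM for 52, 5 to 10 RPKM for 14 and 10 RPKM or more for 8. The family was led by *fbxa-72*, with 118, 73.7 and 80.1 RPKM in nhr-49(nr2041) animals and 72.8, 109.6 and 76.5 RPKM in wild type animals. This single gene supplied between 14.2% and 23.2% of the RPKM of all 109 members in a library. Its 2 highest values were those of the 2 libraries set apart above, and it did not differ between the genotypes beyond its spread (log2 fold change 0.061 ± 0.22 SE, 95% interval −0.46 to 0.58, limma adjusted p = 0.928). Next came *fbxa-156*, with 33.4, 22.8 and 22.9 RPKM in the mutant and 15.4, 20.3 and 18.6 RPKM in wild type. *fbxa-60* was measured at 22.1, 13.5 and 17.7 RPKM in the mutant and 15.05, 16.1 and 16.2 RPKM in wild type. *fbxa-101* had 21.3, 12.3 and 14.01 RPKM in the mutant and 15.6, 14.9 and 17.6 RPKM in wild type. Of the 5 most abundant members, *fbxa-74* (described below) was called, *fbxa-156* had groups that did not overlap without being called, and the other 3 had overlapping groups.

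**Figure D1:**
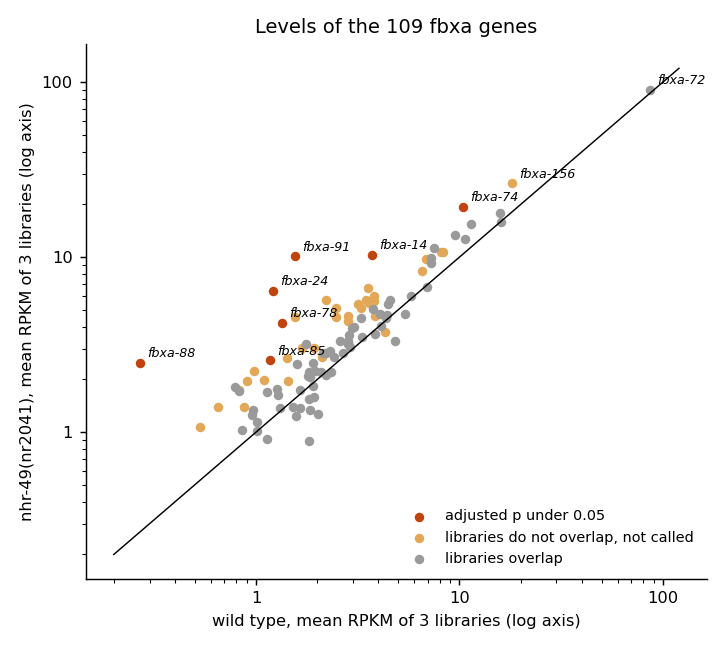
Mean RPKM of each of the 109 *fbxa* genes in nhr-49(nr2041) animals (vertical axis) against wild type animals (horizontal axis), 3 libraries each, both axes logarithmic. The diagonal marks equal levels. Most members lie above it, the 7 called genes are named, and *fbxa-72* stands alone with means of 90.4 RPKM in the mutant and 86.3 RPKM in wild type.

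The question put to these genes was how their levels differed between the nhr-49(nr2041) and wild type animals. 7 members rose in the mutant and 0 fell at a limma adjusted p under 0.05: *fbxa-91*, *fbxa-24*, *fbxa-88*, *fbxa-14*, *fbxa-78*, *fbxa-74* and *fbxa-85*. This is 6.42% of the members called higher, beside 3.32% of all genes tested that were called higher and 0.816% that were called lower. At an unadjusted p under 0.05 the members numbered 30 higher (27.5%) and 0 lower, beside 10.9% of all genes higher and 2.28% lower. With limma voom on recovered reads, 6 members were called higher (5.50%, beside 3.28% of all genes) and 0 lower (beside 0.859%). The 3 mutant values lay above all 3 wild type values for 38 members (34.9%, beside 17.6% of all genes) and below them for 1 member (0.917%, beside 3.78% of all genes). These counts are over genes that passed the minimum, and some of the members passed it through the mutant libraries: for 20 of them all 3 mutant libraries but fewer than 3 wild type libraries reached 1 RPKM. For 3 of those 20, *fbxa-39*, *fbxa-50* and *fbxa-88*, no wild type library did. The opposite, all 3 wild type libraries but fewer than 3 mutant libraries, held for 3 members.

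Beyond the called genes, most members had somewhat higher values in the mutant. The log2 fold change was positive for 90 members (82.6%, beside 67.3% of all genes) and negative for 19, and its median was 0.25, against 0.10 for all genes tested. Setting the library medians equal moved the median of all genes to −0.022 and quantile normalization moved it to −0.041, so the members are given relative to it. Relative to the median of all genes, the median member was higher by 0.15 on the log2 scale as deposited and by 0.10 after quantile normalization. In that order, 78 and 68 of the 109 members lay above the median of all genes. Equal medians shift the log2 fold change of every gene by the same amount, so that scaling could not change the 0.15 or the 78. The members with a positive log2 fold change then numbered 75 with equal medians (68.8%, beside 46.0% of all genes) and 62 after quantile normalization (56.9%, beside 42.9%). The same scalings lowered the number of members with no overlap in the higher direction to 23 (21.1%, beside 8.06% of all genes) with equal medians and 19 (17.4%, beside 8.25%) after quantile normalization. In the lower direction they gave 5 members (4.59%, beside 11.2% of all genes) and 7 members (6.42%, beside 9.62%). Leaving out wild type replicate 2, which can only keep or raise the count, gave 9 (8.26%, beside 9.72%). Quantile normalization left 4 members called higher (3.67%, beside 2.86% of all genes), a share close to the background, since *fbxa-24*, *fbxa-74* and *fbxa-85* missed the threshold (limma adjusted p = 0.0540, 0.0507 and 0.198). Equal medians left 5 (4.59%, beside 2.80%), without *fbxa-74* and *fbxa-85* (limma adjusted p = 0.057 and 0.124). When 1 library was left out at a time, between 4 and 6 members were called, with 4 without wild type replicate 1 or replicate 3. These are 3.67% to 5.50% of the members, beside 2.28% to 3.62% of all genes in the same fits. Without wild type replicate 2 the shares were close, 4.59% of the members and 3.62% of all genes.

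**Figure D2:**
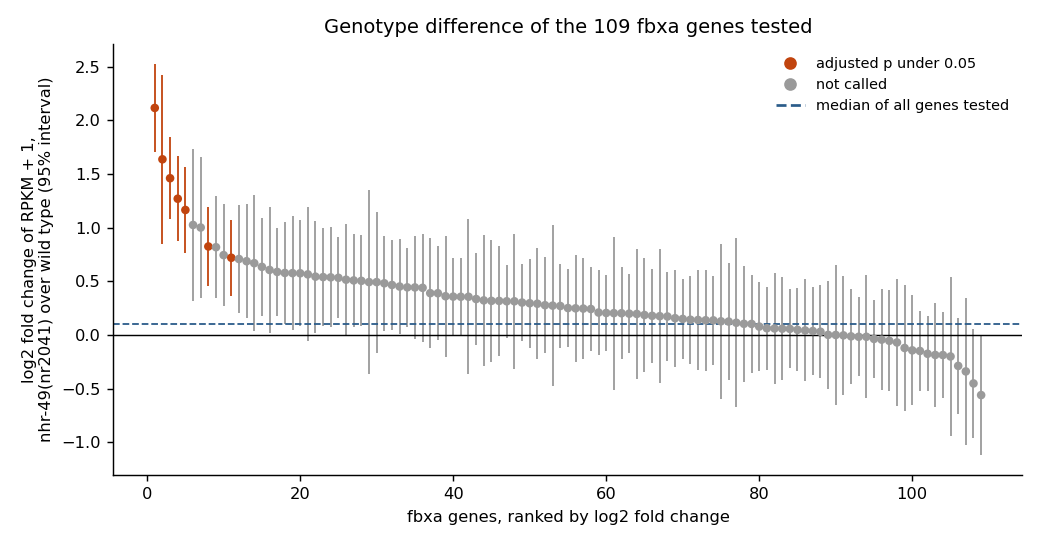
Log2 fold change of RPKM + 1, nhr-49(nr2041) over wild type, of the 109 *fbxa* genes in rank order, with 95% intervals from limma (3 libraries per genotype). The 7 called genes are among the 11 with the largest change, and 90 of the 109 points lie above 0.

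On the log2(RPKM + 1) scale the largest difference in the family was that of *fbxa-91*, which RefSeq annotates as a pseudogene of 1018 bases on chromosome III (WBcel235, 1253384 to 1254401). It was measured at 12.03, 9.70 and 8.64 RPKM in nhr-49(nr2041) animals, against 1.49, 1.81 and 1.36 RPKM in wild type animals. The lowest mutant library was more than 4 times the highest wild type library, and the values rest on 223, 197 and 192 recovered reads in the mutant and 34, 41 and 28 in wild type. Its level rose 6.52-fold between the group means (log2 fold change 2.12 ± 0.18 SE, limma adjusted p = 3.33e-04). The protein-coding gene *fbxa-78* lies within 3 kb of it (III, 1257182 to 1258458, minus strand). It had 3.999, 4.24 and 4.42 RPKM in the mutant and 1.44, 1.63 and 0.965 RPKM in wild type, with mutant libraries that were close to each other. The log2 fold change was 1.16 ± 0.17 SE (limma adjusted p = 0.00732). The whole of *fbxa-78* lies inside the annotated span of *fbxa-208* on the opposite strand, which was listed at 0 in every library. Their exons share 928 bases. As the counting strand was not stated, reads of this overlap cannot be told apart.

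*fbxa-14* (III, 1322124 to 1324613, minus strand) was measured at 11.7, 9.01 and 10.3 RPKM in the mutant and 3.03, 4.02 and 4.06 RPKM in wild type. The groups lay far apart, and 414, 349 and 436 reads stood behind the values in the mutant and 132, 174 and 159 reads in wild type. It rose 2.79-fold (log2 fold change 1.27 ± 0.17 SE, limma adjusted p = 0.00447). *fbxa-74* (III, 1696952 to 1698986, minus strand) was the most abundant called member, at 23.6, 17.6 and 16.9 RPKM in the mutant and 10.6, 11.05 and 9.54 RPKM in wild type. Its groups were well separated but the difference was smaller, 1.86-fold (log2 fold change 0.82 ± 0.16 SE, limma adjusted p = 0.0280). This call was lost without nhr-49(nr2041) replicate 2, wild type replicate 1 or wild type replicate 3 (adjusted p = 0.084, 0.109 and 0.149).

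On chromosome V, *fbxa-88* (16142008 to 16143116, minus strand) showed the highest ratio of group means, 9.28. It had 2.83, 2.58 and 2.07 RPKM in the mutant and 0.240, 0.414 and 0.152 RPKM in wild type, where only 7, 12 and 4 reads lay behind the values. Because no wild type library reached 1 RPKM, it entered the test only through the mutant libraries, and its log2 fold change of 1.46 ± 0.16 SE (limma adjusted p = 0.00171) is held down by the pseudocount of 1. With voom on recovered reads its log2 fold change was 3.20. Its exons share 352 bases with those of *fbxa-18* on the opposite strand. The strand used in counting was not stated, so reads of the overlap cannot be told apart. *fbxa-18* was measured at 2.26, 1.15 and 2.00 RPKM in the mutant and 0.216, 1.20 and 0.960 RPKM in wild type, and these groups overlapped (log2 fold change 0.67, limma adjusted p = 0.343). *fbxa-85* (V, 17259168 to 17260561, plus strand) had 2.67, 2.75 and 2.33 RPKM in the mutant and 1.01, 1.20 and 1.32 RPKM in wild type. All of its mutant values lay above 2 RPKM and all of its wild type values below it (log2 fold change 0.72 ± 0.15 SE, limma adjusted p = 0.0419). This call was lost when any 1 of the 6 libraries was left out (adjusted p = 0.0771 to 0.206).

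*fbxa-24* (II, 3816526 to 3818238, plus strand) was the called member in which a single library weighed most. It had 10.7, 3.60 and 4.92 RPKM in the mutant and 1.56, 1.06 and 1.02 RPKM in wild type, so replicate 1 of the mutant was 2.52 times the mean of the other mutant libraries. The groups did not overlap with or without that library. The log2 fold change was 1.64 ± 0.34 SE (limma adjusted p = 0.0406) with all libraries and 1.25 (adjusted p = 0.0247) without it. The call was lost without nhr-49(nr2041) replicate 3 or any 1 of the wild type libraries (adjusted p = 0.0758 to 0.164). The next gene of the family on this chromosome, the annotated pseudogene *fbxa-146* (II, 3814376 to 3815458), did not share this pattern. It had 3.67, 3.59 and 3.88 RPKM in the mutant and 4.50, 4.57 and 3.92 RPKM in wild type, and as deposited was the only member whose mutant libraries all lay below the wild type libraries, though other scalings and library choices gave between 1 and 15 such members (log2 fold change −0.17 ± 0.15 SE, limma adjusted p = 0.674).

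**Figure D3:**
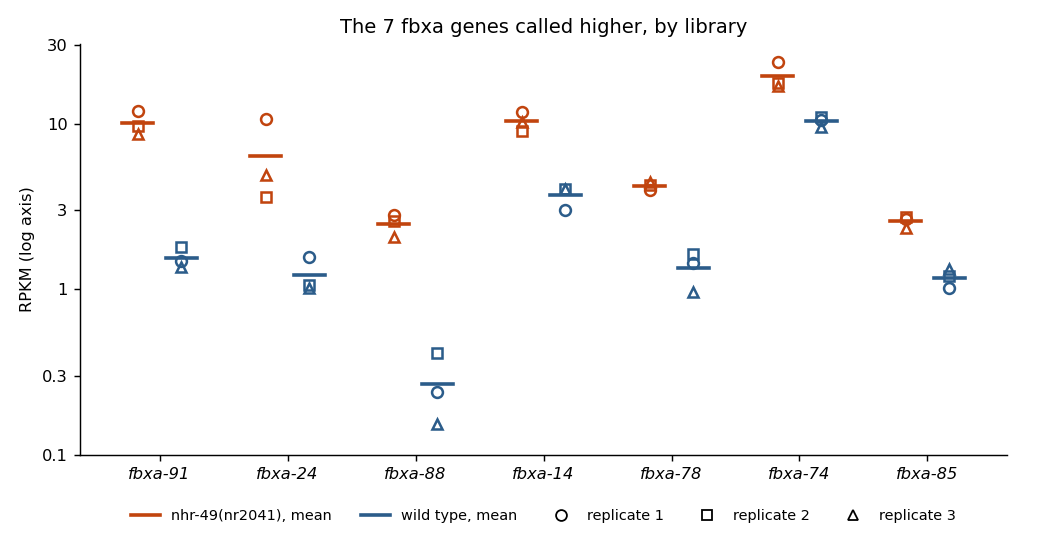
RPKM (logarithmic axis) of the 7 *fbxa* genes called higher, in each library of nhr-49(nr2041) (left of each pair) and wild type (right) animals. Symbols give the replicate number and horizontal lines the mean of 3. No mutant library overlaps a wild type library of the same gene, and *fbxa-24* has 1 mutant library, replicate 1 at 10.7 RPKM, far above the other 2.

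Another 31 members had groups that did not overlap in the higher direction without being called, and *fbxa-29* and *fbxa-80* had the largest changes among all uncalled members. *fbxa-29* (III, 1272474 to 1273700) was measured at 7.22, 2.48 and 3.90 RPKM in the mutant and 1.38, 1.57 and 1.73 RPKM in wild type (log2 fold change 1.03 ± 0.30 SE, limma adjusted p = 0.160). *fbxa-80* (III, 1313297 to 1315210) had 8.45, 5.02 and 3.59 RPKM in the mutant and 2.50, 2.51 and 1.65 RPKM in wild type (log2 fold change 1.00 ± 0.28 SE, limma adjusted p = 0.136). In both genes replicate 1 of the mutant was the highest library and the 3 mutant values were spread widely. *fbxa-190*, the only member on chromosome X, was tighter at 6.31, 4.67 and 4.43 RPKM in the mutant and 1.85, 3.04 and 2.56 RPKM in wild type (log2 fold change 0.82 ± 0.20 SE, limma adjusted p = 0.0869). *fbxa-19* had 8.19, 6.29 and 5.50 RPKM in the mutant and 4.23, 2.76 and 3.71 RPKM in wild type (log2 fold change 0.74 ± 0.20 SE, limma adjusted p = 0.122). *fbxa-54* was nearly constant in the mutant at 4.44, 4.66 and 4.59 RPKM, against 1.96, 1.88 and 3.62 RPKM in wild type (log2 fold change 0.71 ± 0.22 SE, limma adjusted p = 0.176). Of the other uncalled members without overlap, 14 had log2 fold changes between 0.50 and 0.69: *fbxa-4*, *fbxa-11*, *fbxa-39*, *fbxa-51*, *fbxa-57*, *fbxa-61*, *fbxa-77*, *fbxa-89*, *fbxa-151*, *fbxa-156*, *fbxa-157*, *fbxa-166*, *fbxa-189* and *fbxa-219*. The limma adjusted p of these genes ranged between 0.163 and 0.431.

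At the other end of the ranking the lowest log2 fold change was −0.56 ± 0.24 SE, in *fbxa-147* (limma adjusted p = 0.380). It was measured at 0.585, 0.873 and 1.20 RPKM in the mutant and 2.12, 0.999 and 2.35 RPKM in wild type. Its groups overlapped only through wild type replicate 2. *fbxa-42* had the same form, with 1.53, 1.12 and 1.19 RPKM in the mutant and 2.73, 0.777 and 2.57 RPKM in wild type. Leaving out nhr-49(nr2041) replicate 1 and wild type replicate 2 together made *fbxa-42* the 1 member called lower (log2 fold change −0.76 ± 0.18 SE, limma adjusted p = 0.0312). In that fit 2.51% of all genes were called lower.

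Chromosome III held 4 of the 7 called members. All 222 rows were found in RefSeq on the build WBcel235, and the 109 members fall on chromosomes I (11), II (8), III (42), IV (2), V (45) and X (1). Of the 42 members on III, 36 had a positive log2 fold change, 23 had no overlap in the higher direction and 4 were called. Of the 45 members on V, 38 had a positive log2 fold change, 10 had no overlap and 2 were called. Over all genes tested, 67.3% had a positive log2 fold change, 17.6% had no overlap in the higher direction and 3.32% were called higher. The median log2 fold change was 0.40 for the members on III, against 0.080 for the 2125 other genes tested on that chromosome. It was 0.20 for the members on V, against 0.13 for 2672 other genes, and 0.037 for the members on I, against 0.083 for 2266 other genes. No member on I was called, the chromosome that carries *nhr-49* (I, 9869718 to 9874626). With 11 members there and 3.32% of all genes called higher, this cannot set the members on I apart from all genes. With nhr-49(nr2041) replicate 1 and wild type replicate 2 left out, the medians of the members on III, V and I were 0.30, 0.12 and −0.10.

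**Figure D4:**
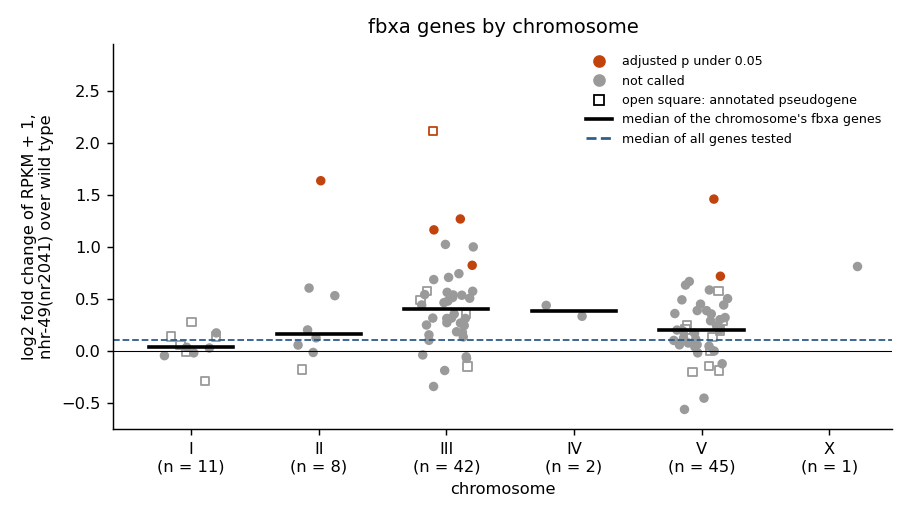
Log2 fold change of RPKM + 1, nhr-49(nr2041) over wild type, of the 109 *fbxa* genes by chromosome (number of members in brackets, points spread sideways for legibility). Black bars are medians of the members, open squares are annotated pseudogenes, and the dashed line is the median of all genes tested, 0.10. The median of the 42 members on III, 0.40, stands above those of V and I.

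With neighbouring *fbxa* rows at most 50 kb apart and at least 5 members to a run, the family forms 4 runs, 2 on the left end of III and 2 on V. The runs on III were singled out after their values had been seen, so they are described without a test. The first spans 30.4 kb (933422 to 963833) with 12 rows of which 8 were members. All 8 had a positive log2 fold change, between 0.14 (*fbxa-60*) and 0.71 (*fbxa-54*), 6 had no overlap in the higher direction (beside 17.6% of all genes) and none was called. The second spans 148.2 kb (1236015 to 1384252) with 34 rows of which 22 were members, and it holds *fbxa-91*, *fbxa-78* and *fbxa-14* as well as the uncalled *fbxa-29*, *fbxa-80* and *fbxa-19*. In this run 20 of the 22 members had a positive log2 fold change, 12 had no overlap in the higher direction (beside 17.6% of all genes), 3 were called (beside 3.32%), and the median log2 fold change was 0.47. Without nhr-49(nr2041) replicate 1 and wild type replicate 2 the median was 0.40. The members below 0 in the run were *fbxa-34* (−0.15) and *fbxa-5* (−0.054). The runs on V had 5 members each and no call. From 17637982 to 17658198, 3 of 5 members had a positive log2 fold change, 1 had no overlap in the higher direction and the median was 0.00059. From 18082402 to 18136022, 4 of 5 were positive, 0 had no overlap and the median was 0.063.

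The called genes of the second run were not limited to those named *fbxa*. Of the 4 other genes tested within it, the annotated pseudogene *Y82E9BL.9* (III, 1333921 to 1335467) was called higher. It had 12.3, 10.9 and 10.7 RPKM in nhr-49(nr2041) animals and 2.22, 3.38 and 1.69 RPKM in wild type animals (log2 fold change 1.87 ± 0.21 SE, limma adjusted p = 0.00172). *Y82E9BL.18* and *linc-40*, which lie between it and *fbxa-14*, had groups that did not overlap, with log2 fold changes of 0.75 and 0.57 (limma adjusted p = 0.0669 and 0.105). The spans of these 2 genes overlap each other, so their reads may be shared. The row of *fbxa-15*, which lies between *fbxa-19* and *fbxa-14* and shares 53 bases with *fbxa-19* on the opposite strand, missed the minimum. It was measured at 0.965, 1.403 and 1.04 RPKM in the mutant and 0.290, 0.0876 and 0.226 RPKM in wild type. When every gene above 0 was tested it was called higher (log2 fold change 0.83 ± 0.12 SE, limma adjusted p = 0.0144).

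RefSeq marks 23 of the 109 members as pseudogenes and 86 as protein-coding. Apart from *fbxa-91*, whose mean over the 6 libraries was the highest of the 23 at 5.84 RPKM, no annotated pseudogene was called. Among the pseudogenes 16 had a positive log2 fold change with a median of 0.14 and 3 had no overlap in the higher direction. Among the protein-coding members 74 had a positive log2 fold change with a median of 0.31, 35 had no overlap and 6 were called. These counts stand beside the shares of all genes given above, 67.3% positive, 17.6% without overlap and 3.32% called higher. Mean levels also differed, with medians of 1.76 RPKM for the pseudogenes and 3.51 RPKM for the protein-coding members. How reads that fit several members of the family were assigned is not given in the sources used here, and the likeness of the members in sequence was not measured.

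The libraries themselves left a mark on the family. Replicate 1 of nhr-49(nr2041) held the highest of the 6 values for 67 of the 109 members (61.5%), beside 45.6% of all genes tested. The lowest value was in wild type replicate 1 for 31 members, in replicate 2 for 31 and in replicate 3 for 23. The RPKM of the 109 members summed to 710, 517 and 535 in the mutant libraries and 431, 472 and 456 in the wild type libraries. The lowest mutant sum exceeded the highest wild type sum, and replicate 1 of the mutant stood far above the other 2. These sums are on the deposited scale, where the median log2 fold change of all genes was itself 0.10. Sums after rescaling were not computed. Replicate 1 of the mutant was 1.28 times the mean of replicates 2 and 3 at the median member, against 1.10 times for all genes. For 29 members this ratio was at least 1.5, and of these only *fbxa-24* was called, near the 3.32% of all genes called higher. A ratio this large means a wide spread in the mutant, which by itself makes a call less likely.

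A smaller group of members followed wild type replicate 2. Its value was less than 0.5 of the mean of the other wild type libraries for 13 members: *fbxa-26*, *fbxa-42*, *fbxa-122*, *fbxa-125*, *fbxa-129*, *fbxa-147*, *fbxa-178*, *fbxa-183*, *fbxa-191*, *fbxa-196*, *fbxa-198*, *fbxa-201* and *fbxa-224*. The clearest was *fbxa-224*, with 1.59, 1.25 and 1.29 RPKM in the mutant and 2.12, 0.317 and 1.49 RPKM in wild type. In 9 of the 13, replicate 1 of the mutant was also below the mean of the other mutant libraries, so they shared the low libraries of the germline markers given above. None of the 13 was called, beside 3.32% of all genes called higher and 0.816% lower. They were picked for a wide spread in wild type, which by itself makes a call less likely. Their median log2 fold change was 0.00059. The part of the germline markers in these values was not tested.

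**Figure D5:**
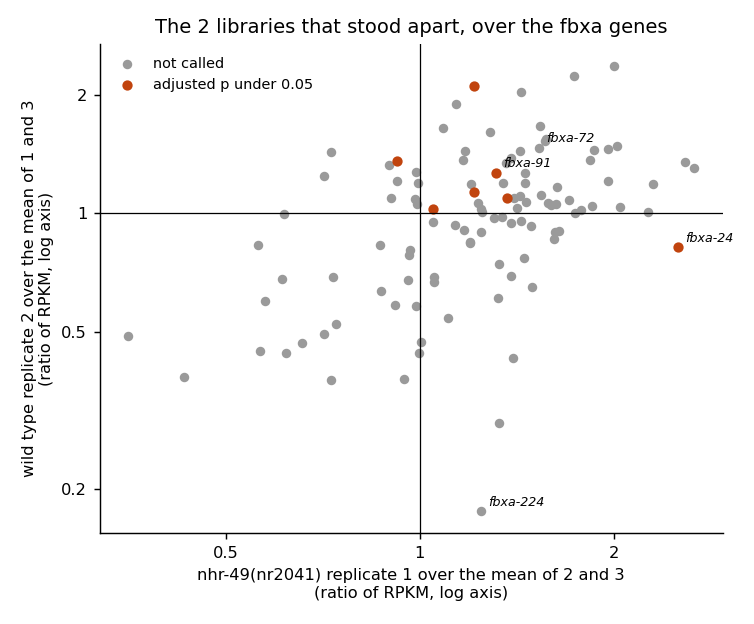
Each point is 1 of the 109 *fbxa* genes. The horizontal axis gives nhr-49(nr2041) replicate 1 over the mean of mutant replicates 2 and 3, and the vertical axis wild type replicate 2 over the mean of wild type replicates 1 and 3, both as ratios of RPKM on logarithmic axes. *fbxa-24* lies far to the right at 2.52, the other 6 called genes lie between 0.923 and 1.37, and *fbxa-224* is the lowest point at 0.175.

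With nhr-49(nr2041) replicate 1 and wild type replicate 2 both left out, 8 members were called higher (7.34%, beside 6.80% of all genes), a share close to the background of that fit. Among these higher calls *fbxa-157* and *fbxa-190* were added and *fbxa-85* was lost. Only 1 member was called lower, beside 2.51% of all genes. The median member was then higher than the median of all genes by 0.11 on the log2 scale, and 71 of 109 members lay above it. No overlap in the higher direction was seen for 49 members (45.0%, beside 34.1% of all genes) and in the lower direction for 15 (13.8%, beside 15.8%). Leaving out libraries can only keep or raise such counts. *fbxa-91*, *fbxa-88*, *fbxa-14* and *fbxa-78* were called in every alternative in which they were tested, with log2 fold changes of at least 1.93, 1.11, 1.11 and 0.95. Of these, *fbxa-88* had passed the minimum only through the mutant libraries, and *fbxa-78* reached 1 RPKM in only 2 wild type libraries.

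The partners through which F-box proteins act did not pass the test. Of 8 cullins and RING partners, 11 SKP1-related genes and 12 genes of neddylation and the COP9 signalosome tested, 0 were called by limma or by limma voom. Only *cul-6* and *skr-3* had an unadjusted p under 0.05. Over all genes, limma called 3.32% higher and 0.816% lower, and 10.9% were higher at an unadjusted p under 0.05. Beside these shares, 0 calls in lists this short, here and below, cannot set the lists apart from all genes. The SKP1-related adaptors had a positive log2 fold change in 11 of 11 genes (beside 67.3% of all genes), with a median of 0.20 (against 0.10 for all genes). Of these, *skr-18*, *skr-17* and *skr-2*, at 0.0010, 0.020 and 0.046, lay below the median of all genes, and the rest lay above it. The 21 rows of this list summed to 693, 514 and 520 RPKM in the mutant, highest in replicate 1. In wild type they summed to 472, 504 and 468 RPKM. The other gene families that supply receptors to cullin ligases also gave 0 calls by either method: 17 *fbxc* genes tested of 55 rows (median log2 fold change 0.13, 0 at an unadjusted p under 0.05), 1 *fbxb* gene of 113 rows (0), 11 singly named F-box genes (0) and 32 *bath* genes of 44 rows (median 0.14, 1). The most changed gene of these families was *bath-14*, a BTB adaptor gene, with 1.87, 3.17 and 3.11 RPKM in the mutant and 1.59, 1.71 and 1.36 RPKM in wild type (log2 fold change 0.52 ± 0.19 SE, limma adjusted p = 0.294). The difference between *fbxa* and these families was not tested.

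CUL-6 is a cullin that works with SKR-3, SKR-4 and SKR-5, the RING protein RCS-1 (listed under its sequence name *C28G1.5*) and the F-box proteins FBXA-75 and FBXA-158 in the intracellular pathogen response, which protects the intestine against proteotoxic stress. *cul-6* was measured at 5.998, 6.003 and 4.76 RPKM in the mutant and 3.83, 4.43 and 3.73 RPKM in wild type (log2 fold change 0.40 ± 0.16 SE, limma adjusted p = 0.352). *skr-3* had 173.3, 116.8 and 110.7 RPKM in the mutant and 75.7, 97.5 and 89.2 RPKM in wild type (log2 fold change 0.58 ± 0.19 SE, limma adjusted p = 0.213). *C28G1.5* had 33.7, 29.6 and 28.1 RPKM in the mutant and 22.1, 25.7 and 25.2 RPKM in wild type (log2 fold change 0.31 ± 0.12 SE, limma adjusted p = 0.315). In these 3 of the 5 genes tested, the groups did not overlap in the higher direction (beside 17.6% of all genes). None of them was called. *skr-4* and *skr-5* had overlapping groups, with log2 fold changes of 0.15 and 0.35 (limma adjusted p = 0.676 and 0.664). Both F-box receptors of the complex missed the minimum of 1 RPKM. *fbxa-158* (II, 1619814 to 1621280) was listed at 1.66, 0.698 and 0.399 RPKM in the mutant and 0.181, 0.130 and 0.115 RPKM in wild type, so all 3 mutant libraries were higher. Tested with every gene above 0 it was not called (log2 fold change 0.69 ± 0.22 SE, limma adjusted p = 0.241). *fbxa-75* had 0.203 RPKM in mutant replicate 1, 0.0552 RPKM in wild type replicate 2 and 0 in the other 4 libraries.

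The minimum of 1 RPKM cut through a continuous range of levels. Just inside it, *fbxa-50* had 1.13, 1.07 and 1.01 RPKM in the mutant and 0.305, 0.716 and 0.564 RPKM in wild type, having entered through the mutant libraries alone. *fbxa-183* had 1.26, 0.542 and 1.27 RPKM in the mutant and 0.845, 0.455 and 1.27 RPKM in wild type. Just outside, *fbxa-141* had 0.892, 0.970 and 1.86 RPKM in the mutant and 0.780, 0.476 and 1.33 RPKM in wild type. *fbxa-52* had 1.86, 0.892 and 1.20 RPKM in the mutant and 0.567, 0.837 and 0.672 RPKM in wild type.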

How the data were processed

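The values were RPKM deposited by the authors, who mapped the reads and computed RPKM per gene in CLC Genomics Workbench on WBcel235. Neither the annotation version nor the counting strand is stated in what was read for this work. Only the 6 single-library columns were used, not the authors' means or their own comparison.

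Genes were kept where 3 or more libraries reached 1 RPKM. Log2(RPKM + 1) of these 13965 genes was tested by genotype with limma 3.58.1 (R 4.3.3, eBayes with trend and robust settings, two-sided, Benjamini-Hochberg over all 13965 genes, call at an adjusted p under 0.05). The pseudocount of 1 shrinks the fold changes of low genes. The total of mapped reads of each library was inferred from ratios of RPKM between libraries. With these totals, whole reads were recovered from the RPKM of 19579 genes (100% within 0.01 reads). They made up 95.4% to 97.9% of the inferred total of a library, a lower bound for low genes. Recovered reads were tested with limma voom as an alternative. The fit was checked on simulated data. Replicates differed by more than counting noise.

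Positions and gene types are from RefSeq on WBcel235, matched by symbol (222 of 222 rows). Strands and exon overlaps are from Ensembl release 115 (86 of 109 members matched).

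Named members were those called, those without overlap and with an absolute log2 fold change of at least 0.5, the 5 most abundant, the 5 uncalled with the largest change, the CUL-6 partners and those beside the minimum. From other lists, up to 4 genes with the smallest p and the CUL-6 genes could be named. *fbxa-42*, *fbxa-147*, *fbxa-224*, *fbxa-18*, *fbxa-146*, *fbxa-15*, *fbxa-5*, *fbxa-34* and the genes beside the runs were added after their values were seen. Members and lists were chosen with earlier results of these data known.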

Additional observations from a re-analysis of the deposited data

How the results depend on the processing

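The number of *fbxa* genes called higher was 7. With a minimum of 5 RPKM it was 3 of the 25 members left to test (12%, beside 3.16% of all genes). It was 4 after quantile normalization, 30 at an unadjusted p under 0.05, and between 4 and 6 when 1 library was left out. It lay between 5 and 8 in all other alternatives. The number called lower was 0, except for 1 with nhr-49(nr2041) replicate 1 and wild type replicate 2 left out together (beside 2.51% of all genes). Members without overlap in the higher direction numbered 38, and 19 after quantile normalization or 23 with equal library medians, both tried after seeing the data. Leaving out 1 library gave between 40 and 50. The share of all genes without overlap in the same settings was 20.9% to 29.1%, against 17.6% with all libraries. Leaving out a library cannot make separate groups overlap, so these counts could only stay or rise. Apart from this and the fewer members under the higher minimum, the cause of the changes was not tested.

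With the replicate number as a replicate block, 5 members were called higher (4.59%, beside 2.38% of all genes) and 0 lower (beside 0.458%). *fbxa-74* and *fbxa-85* were lost (limma adjusted p = 0.0777 and 0.163). The numbers did not pair the samples: the deviations of same-numbered libraries correlated at −0.33, −0.159 and 0.342, and not every library correlated best with its own number.

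Of the genes followed through the alternatives, 6 turned sign, none of them called. Members named only in the list of 13 low in wild type replicate 2 were not followed. *fbxa-72* was at −0.039 after quantile normalization, −0.065 with equal medians and between −0.14 and 0.24 with 1 library left out. *fbxa-60* was at −0.011 with both libraries left out and between −0.025 and 0.31 with 1 left out. *fbxa-101* was between −0.26 and 0.11 with 1 left out. *fbxa-183* was at −0.18 after quantile normalization, −0.0011 with equal medians, −0.13 with both libraries left out and between −0.039 and 0.31 with 1 left out. *fbxa-224* was at −0.11 after quantile normalization, −0.29 with both left out and between −0.23 and 0.39 with 1 left out. *fbxa-5* was between −0.17 and 0.13 with 1 left out. The member with the fewest recovered reads, *fbxa-13*, had 122 over the 6 libraries, at a mean of 3.01 RPKM. This count is a lower bound. The recovery takes the shortest length that gives whole reads, here 244 bases, so *fbxa-13* need not be the least covered member.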
